A study of Mus musculus with 4 samples.

Results

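Olfactory receptor genes were examined in RNA of the right testis of sexually mature male KM mice, an outbred strain. The genes described are those with a symbol of the form Olfr followed by a number, chosen by their level: the mean over all 4 libraries had to be at least 0.1 FPKM, a measure of RNA scaled to transcript length and to the number of mapped fragments. Of 1080 olfactory receptor genes in the table, 38 met this rule. In the 2 hemicastrated mice the left testis had been taken out before puberty, and the 2 control mice were sham-operated then. The labels name no transgene or drug in either group. The sample labels and the design text give 2 mice per group, whereas the protocol text speaks of 3. Ages in days and read lengths are not given in the sources used here. Libraries are called hemicastrated 1 and 2 and control 1 and 2 after their titles. FPKM carry no read counts, so the depth is unknown, and only the 2 libraries of each group show the error.

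Olfactory receptors are G protein-coupled receptors that span the membrane several times and form the largest gene family of the mouse. In the nose each sensory neuron expresses mostly a single receptor gene, and an odorant acts through the G protein subunit encoded by Gnal and the adenylyl cyclase Adcy3 to raise cAMP, which opens a cyclic nucleotide-gated channel and then a calcium-activated chloride channel. Some members of the family are also transcribed in the testis, and the receptor MOR23, encoded by Olfr16, has been described in mouse germ cells and in the swimming of mouse sperm.

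The libraries carried the markers of testis. The summed FPKM of 7 elongating spermatid genes (among them the protamines Prm1 and Prm2) was 22728 and 22791 in the hemicastrated libraries and 20381 and 21758 in the control libraries. Of 12 marker genes of olfactory sensory neurons, 7 reached a mean of 0.1 FPKM. All 12 summed to 4.33 and 5.25 FPKM in the hemicastrated libraries and to 5.31 and 4.56 FPKM in the control libraries. Omp, the olfactory marker protein, was at 0.0330 and 0.0288 FPKM in the hemicastrated libraries and at 0.0936 and 0.0281 FPKM in the control libraries, and Stoml3, a membrane protein of olfactory cilia, was listed at 0 in all 4. The control libraries also held genes of the epididymis and its ducts. A list of 10 such markers (among them the secretory protein Crisp1) summed to 7.29 and 11.6 FPKM in the hemicastrated libraries and to 1614 and 2209 FPKM in the control libraries. Of the 10, 9 were called lower by the limma test described further on, as were 5 of 7 smooth muscle genes. Over all tested genes 1.06% were called lower. The lists were chosen with earlier results of these data known, so these counts are no independent support. Round spermatid markers summed to 721 and 724 FPKM in the hemicastrated libraries and to 628 and 621 FPKM in the control libraries, with 0 of 7 called. The part of these tissue markers in the receptor values was not tested. In bulk tissue, fewer cells of a type and less RNA per cell cannot be told apart.

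The chromosome 17 members are shown first, because they make up 5 of the 8 receptors at or above 1 FPKM and because their sequences show how alike neighbouring receptor genes are. Sequences were read from the GENCODE M21 transcripts (GRCm38), in the direction of the gene. The 150 coding bases from 200 to 349, counted from 1 at the first coding base, are given for each. Capitals mark bases that differ from Olfr128, which are the places at which a read can be told from an Olfr128 read.
Olfr128: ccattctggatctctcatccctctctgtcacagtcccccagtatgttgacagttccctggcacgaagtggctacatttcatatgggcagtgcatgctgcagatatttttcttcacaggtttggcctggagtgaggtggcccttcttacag
Olfr127: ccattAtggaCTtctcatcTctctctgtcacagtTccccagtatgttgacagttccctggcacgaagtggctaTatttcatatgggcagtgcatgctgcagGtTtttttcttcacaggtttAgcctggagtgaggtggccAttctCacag
Olfr126: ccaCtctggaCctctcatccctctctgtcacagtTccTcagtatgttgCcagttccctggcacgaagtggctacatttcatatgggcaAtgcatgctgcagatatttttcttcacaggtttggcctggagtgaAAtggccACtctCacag
Olfr112: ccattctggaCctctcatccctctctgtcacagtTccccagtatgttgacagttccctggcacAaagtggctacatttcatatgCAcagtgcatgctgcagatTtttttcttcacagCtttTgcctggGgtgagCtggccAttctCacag
Olfr761: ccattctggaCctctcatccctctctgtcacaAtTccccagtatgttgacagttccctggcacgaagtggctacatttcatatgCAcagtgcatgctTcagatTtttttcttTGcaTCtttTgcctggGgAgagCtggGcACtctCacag
Over this stretch Olfr127 and Olfr126 each differed from Olfr128 at 11 bases, Olfr112 at 12 and Olfr761 at 19. Over the coding bases that aligned, the identity to Olfr128 was 96.4% for Olfr127, 96.0% for Olfr126, 94.6% for Olfr761 and 88.2% for Olfr112. The alignment covered 924 bases for each of these genes except Olfr112, where it covered 909, and coding ends that did not align are left out. The longest run of coding bases shared exactly with Olfr128 was 288 bases in Olfr127, 165 in Olfr761, 147 in Olfr126 and 56 in Olfr112.

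Most olfactory receptor genes were listed at 0. Of the 1080 genes, 953 (88.2%) were at 0 in all 4 libraries, against 15.8% of all 22073 genes in the table, and 89 more lay above 0 but under a mean of 0.1 FPKM. The share at or above that mean was 3.52% of olfactory receptor genes and 71.5% of all genes. An exact 0 in such a table can also be a failed estimate, and it is reported here as listed at 0. The rule chose the members by their level, so the levels are a description without a test.

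A few genes carried most of the signal. The 38 members summed to 38.6 and 40.0 FPKM in the hemicastrated libraries and to 31.3 and 34.5 FPKM in the control libraries, which is 0.0112% and 0.0113% of the summed FPKM of all genes in the hemicastrated libraries and 0.00904% and 0.0100% in the control libraries. The highest pair of members, Olfr701 and Olfr128, made up 46.5% and 36.1% of the members' sum in the hemicastrated libraries and 44.4% and 39.9% in the control libraries. Only 8 members had a mean of at least 1 FPKM, 18 lay between 0.2 and 1 FPKM and 12 between 0.1 and 0.2 FPKM, with a median of 0.288 FPKM. Of the members, 26 were above 0 in all 4 libraries, 8 in 3 and 4 in 2 of them. The 26 include Olfr20, which was at only 5.23e-07 FPKM in control 2.

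**Figure D1:**
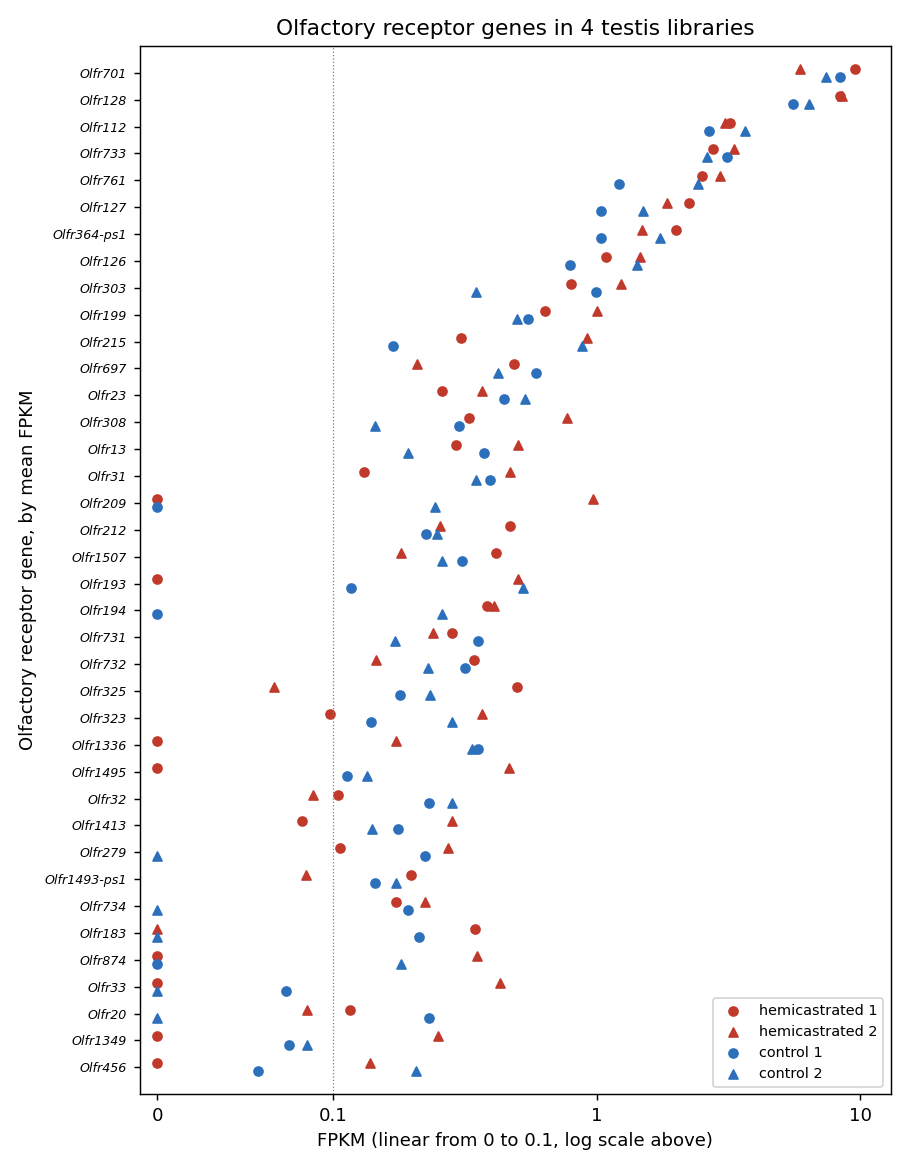
FPKM of the 38 olfactory receptor genes in each library, ordered by their mean; the axis is linear from 0 to 0.1 FPKM (dotted line) and logarithmic above. Olfr701 and Olfr128 stand above 5 FPKM in every library, while many genes below 0.4 FPKM have a library listed at 0.

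Olfr701 (ENSMUSG00000036744, chromosome 7, 106814129 to 106821472, plus strand, GRCm38) had the highest mean, 7.80 FPKM, and ranked 5576 of 22073 genes. It was at 9.53 and 5.92 FPKM in the hemicastrated libraries and at 8.35 and 7.39 FPKM in the control libraries. The hemicastrated values lay on both sides of the control values, so the groups overlapped. Olfr128 (ENSMUSG00000059030, chromosome 17, 37920548 to 37926801, plus strand) was at 8.39 and 8.55 FPKM in the hemicastrated libraries and at 5.57 and 6.37 FPKM in the control libraries, and the groups did not overlap. Hemicastrated 1 and 2 differed less from each other for this gene than either did from a control. The order of these leading genes changed between libraries, with Olfr701 above Olfr128 in hemicastrated 1 and both controls and below it in hemicastrated 2.

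The next pair of genes had about the same level. Olfr112 (chromosome 17, 37561668 to 37569451, minus strand) was at 3.21 and 3.07 FPKM in the hemicastrated libraries and at 2.67 and 3.66 FPKM in the control libraries. Olfr733 (chromosome 14, 50295891 to 50301522, minus strand) was at 2.76 and 3.30 FPKM in the hemicastrated libraries and at 3.12 and 2.62 FPKM in the control libraries. In both genes the groups overlapped, and the levels of the pair did not differ beyond the spread between libraries.

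Below them stood 4 genes between 1 and 2.3 FPKM. Olfr761 (chromosome 17, 37952051 to 37953079, minus strand, annotated with a single exon) was at 2.50 and 2.93 FPKM in the hemicastrated libraries and at 1.22 and 2.42 FPKM in the control libraries. Olfr127 (chromosome 17, 37900437 to 37906795, plus strand) was at 2.23 and 1.85 FPKM in the hemicastrated libraries and at 1.04 and 1.5 FPKM in the control libraries. For both of these the hemicastrated values lay above the control values, by a small margin over control 2 for Olfr761. Olfr364-ps1 (chromosome 2, 37139322 to 37148585, plus strand), annotated as protein coding in GENCODE despite its pseudogene symbol, was at 2.0 and 1.48 FPKM in the hemicastrated libraries and at 1.04 and 1.74 FPKM in the control libraries. Olfr126 (chromosome 17, 37847483 to 37852057, plus strand) was at 1.08 and 1.46 FPKM in the hemicastrated libraries and at 0.792 and 1.42 FPKM in the control libraries. The groups overlapped for these last genes.

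The other members lay under 1 FPKM and varied more. Olfr303 was at 0.799 and 1.24 FPKM in the hemicastrated libraries and at 0.994 and 0.350 FPKM in the control libraries, Olfr199 at 0.634 and 1.0 FPKM in the hemicastrated libraries and at 0.548 and 0.498 FPKM in the control libraries. Olfr215 was at 0.307 and 0.919 FPKM in the hemicastrated libraries and at 0.169 and 0.883 FPKM in the control libraries, so that library 2 of each group was the higher. Olfr697 was at 0.485 and 0.209 FPKM in the hemicastrated libraries and at 0.587 and 0.422 FPKM in the control libraries. A 2-fold gap between the libraries of a group was common among all 38 members, in 20 of them between the hemicastrated and in 15 between the control libraries. Of the 8 members at or above 1 FPKM, 0 had such a gap in either group. Olfr761 fell just short of it, at 1.22 and 2.42 FPKM in the control libraries. Hemicastrated 2 held the highest value in 20 of the 38 members, against 9 for hemicastrated 1, 4 for control 1 and 5 for control 2. The members under 1 FPKM summed to 6.85 and 11.5 FPKM in the hemicastrated libraries and to 7.54 and 7.37 FPKM in the control libraries.

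At the border of the rule, values were close to those of single detections. Just inside were Olfr20, Olfr1349 and Olfr456, with means of 0.108, 0.103 and 0.101 FPKM, and just outside were Olfr1280, Olfr1371 and Olfr554, with means of 0.0920, 0.0900 and 0.0867 FPKM. Across the family, 57 genes were above 0 in exactly 1 library, and there their value had a median of 0.0764 FPKM and a maximum of 0.210 FPKM. Olfr456 had 0 in hemicastrated 1 and 0.139 FPKM in hemicastrated 2, and at 0.0574 and 0.207 FPKM in the control libraries. Olfr1349 was listed at 0 in hemicastrated 1, at 0.251 FPKM in hemicastrated 2, and at 0.0748 and 0.0853 FPKM in the control libraries. Olfr20, at 0.116 and 0.0854 FPKM in the hemicastrated libraries and at 0.231 and 5.23e-07 FPKM in the control libraries, overlaps Gm49340, a protein-coding gene on the same strand with 6.99 and 6.49 FPKM in the hemicastrated libraries and 6.40 and 6.71 FPKM in the control libraries. Other members overlap annotated antisense transcripts, Olfr31 with Gm48860 and Olfr1413 with 1700054K02Rik, and Olfr279 overlaps the pseudogene Olfr278-ps1. Olfr279 and Olfr278-ps1 also lie on the same strand. These overlaps are of gene bodies, and whether exons overlap was not tested. Reads from a stretch that exons of both genes share cannot be told apart. For the antisense pairs this holds because the libraries are not described as marking strand.

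Receptors known from work in other tissues or in the testis were at or near 0. Olfr16, the MOR23 gene, was listed at 0 in all 4 libraries, as were the eugenol receptor gene Olfr73, the azelaic acid receptor gene Olfr544, the octanal receptor gene Olfr2, and Olfr62. Olfr78, a short-chain fatty acid receptor of kidney and vessels, was at 0.0272 FPKM in hemicastrated 1 and at 0.0407 FPKM in control 1, and was listed at 0 in hemicastrated 2 and control 2. Olfr558 was at 0.0833 and 0.0180 FPKM in the hemicastrated libraries and at 0.0631 and 0.0381 FPKM in the control libraries. Olfr1393, known from the proximal tubule of the kidney, was at 0.273 FPKM in hemicastrated 1 and at 0.0659 FPKM in control 1, and was listed at 0 in hemicastrated 2 and control 2. None of these 8 genes reached the mean of 0.1 FPKM. The annotation behind the table is not stated, so the gene models on which these zeros rest are unknown.

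The members were spread over many of the family's genomic clusters, with a few clusters holding several. Olfactory receptor genes of the table that followed each other within 200 kb formed 62 clusters, of which 19 held a member and 11 held at least 2. The cluster on chromosome 17 had 5 members of 47 genes, namely Olfr128, Olfr112, Olfr761, Olfr127 and Olfr126. On chromosome 16, 5 of 25 genes were members (Olfr199, Olfr209, Olfr193, Olfr194 and Olfr183), and on chromosome 14 a cluster of 26 had 4 (Olfr733, Olfr731, Olfr732 and Olfr734). The largest cluster, of 204 genes on chromosome 2, held only Olfr32. Only Olfr33 was a member among 87 genes of the chromosome 7 cluster that spans 102476579 to 104195985, where many class I receptors lie. The next cluster along that chromosome, 104550133 to 105369355, had 0 members among 35 genes. The distance to the nearest gene outside the family with a mean of at least 1 FPKM had a median of 257 kb for the members and of 303 kb for the 953 genes at 0, and 13.2% of the members and 10.8% of the genes at 0 had such a gene within 50 kb. More than 1 annotated exon was found in 92.1% of the members and in 89.5% of the genes at 0. Their coding length ran from 915 to 981 bases. These are counts of annotated features, given without a test.

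**Figure D2:**
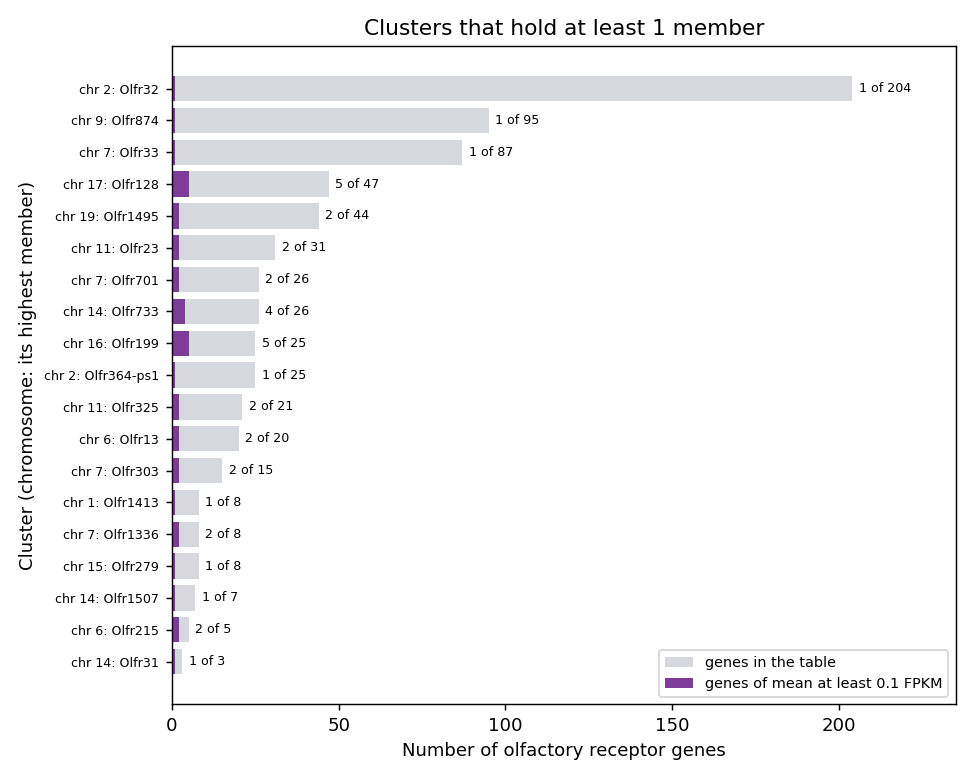
Number of olfactory receptor genes in each of the 19 genomic clusters with a member (grey bars, all genes of the table; purple bars, genes of mean at least 0.1 FPKM), named by chromosome and highest member. The chromosome 17 cluster has 5 of 47 and the largest, on chromosome 2, has 1 of 204.

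Most close relatives of the members were listed at 0, though a smaller share of them than of the family. For 32 members a coding relative was found that aligned over at least 80% of the coding sequence, and the closest had a median identity of 93.2%. That relative was listed at 0 in all 4 libraries for 22 of the 32 (68.8%), against 88.2% of all olfactory receptor genes, and was itself a member for 6. A relative is counted once for each member it is closest to, so these are not all distinct genes. Olfr128, for instance, is counted for Olfr761, Olfr127 and Olfr126, and Olfr732 and Olfr733 are counted for each other. Among the 12 members whose closest relative was at least 95% identical, the relative was listed at 0 for 7 (58.3%). Olfr364-ps1, for example, is 97.7% identical to Olfr365, and Olfr199 is 96.9% identical to Olfr201, and both relatives were listed at 0. The rule by which reads were shared between such copies is one of the points not given here, so the values of these members are uncertain.

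Neighbouring members differed in the library that held their highest value. The chromosome 16 members summed to 1.37 and 2.88 FPKM in the hemicastrated libraries and to 0.877 and 1.53 FPKM in the control libraries, with library 2 the higher in each group. Within that cluster Olfr209 was at 0.970 FPKM in hemicastrated 2 and 0.244 FPKM in control 2 and was listed at 0 in hemicastrated 1 and control 1, whereas Olfr183 was at 0.346 FPKM in hemicastrated 1 and 0.211 FPKM in control 1 and was listed at 0 in hemicastrated 2 and control 2. Olfr193 was listed at 0 in hemicastrated 1 and reached 0.501 FPKM in hemicastrated 2, with 0.117 and 0.524 FPKM in the control libraries. The 4 members of the chromosome 14 cluster summed to 3.56 and 3.91 FPKM in the hemicastrated libraries and to 3.98 and 3.02 FPKM in the control libraries, and Olfr733 made up most of it. Its neighbour Olfr732, 93.5% identical to it in coding sequence, was at 0.342 and 0.145 FPKM in the hemicastrated libraries and at 0.317 and 0.229 FPKM in the control libraries. Both sums overlapped between the groups.

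The comparison of hemicastrated with control mice asks whether loss of the partner testis before puberty goes with another level of these receptors in the adult testis. No olfactory receptor gene passed the test. In limma on log2(FPKM + 0.1) with Benjamini-Hochberg adjustment over the 15788 genes that reached the same 0.1 FPKM mean, 0 of 38 members were called at an adjusted p under 0.05, where 1.13% of all tested genes were called (10 higher, 0.0633%, and 168 lower, 1.06%) and 1.17% of tested genes under a mean of 1 FPKM. At an unadjusted p under 0.05 there were 3 members, Olfr128, Olfr127 and Olfr1336, where 10.9% of all tested genes had one. The counts over all genes rest on both controls, with 0 higher and 0 lower calls without control 1 or without control 2. There were 16 higher and 128 lower calls without hemicastrated 1, and 8 higher and 110 lower calls without hemicastrated 2. The added 0.1 makes fold changes of low genes smaller than the FPKM themselves would give.

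On the log2 scale, 27 of the 38 members (71.1%) had a positive difference, hemicastrated minus control. That share was 41.8% of all tested genes and 37.8% of tested genes with a mean under 1 FPKM. The members' share is given without a test, because members are not independent replicates. Some members, in either direction, reached the mean of 0.1 FPKM only through their higher group. Olfr33 averaged 0.215 FPKM in hemicastrated and 0.0365 FPKM in control mice, and Olfr1336 averaged 0.0866 FPKM in hemicastrated and 0.346 FPKM in control mice. Among germ cell markers, the difference was positive in 7 of 7 round spermatid and 6 of 7 spermatocyte genes. It was positive in 4 of 7 elongating spermatid genes and 1 of 7 spermatogonial genes. The median difference was 0.11 for the members and -0.05 for all tested genes, and under quantile normalization, which moved the median of all genes to 0.03, it was 0.38 for the members, with 30 of 38 above 0. Without control 1 the members' median was 0.02, and without hemicastrated 1 it was 0.47. The count of members above 0 fell to 22 of 38 without control 1, without control 2 or without hemicastrated 2. It was 26 without hemicastrated 1 and 25 with each library rescaled to the same sum. Groups did not overlap in 10 members (26.3%), 7 with higher values after hemicastration (Olfr128, Olfr761, Olfr127, Olfr199, Olfr308, Olfr212 and Olfr194) and 3 with lower values (Olfr23, Olfr1336 and Olfr32), whereas over all tested genes they did not overlap in 41.4%, with 15.3% higher and 26.1% lower, and in tested genes under 1 FPKM in 42.2%. The members' share without overlap was thus below that of all tested genes.

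**Figure D3:**
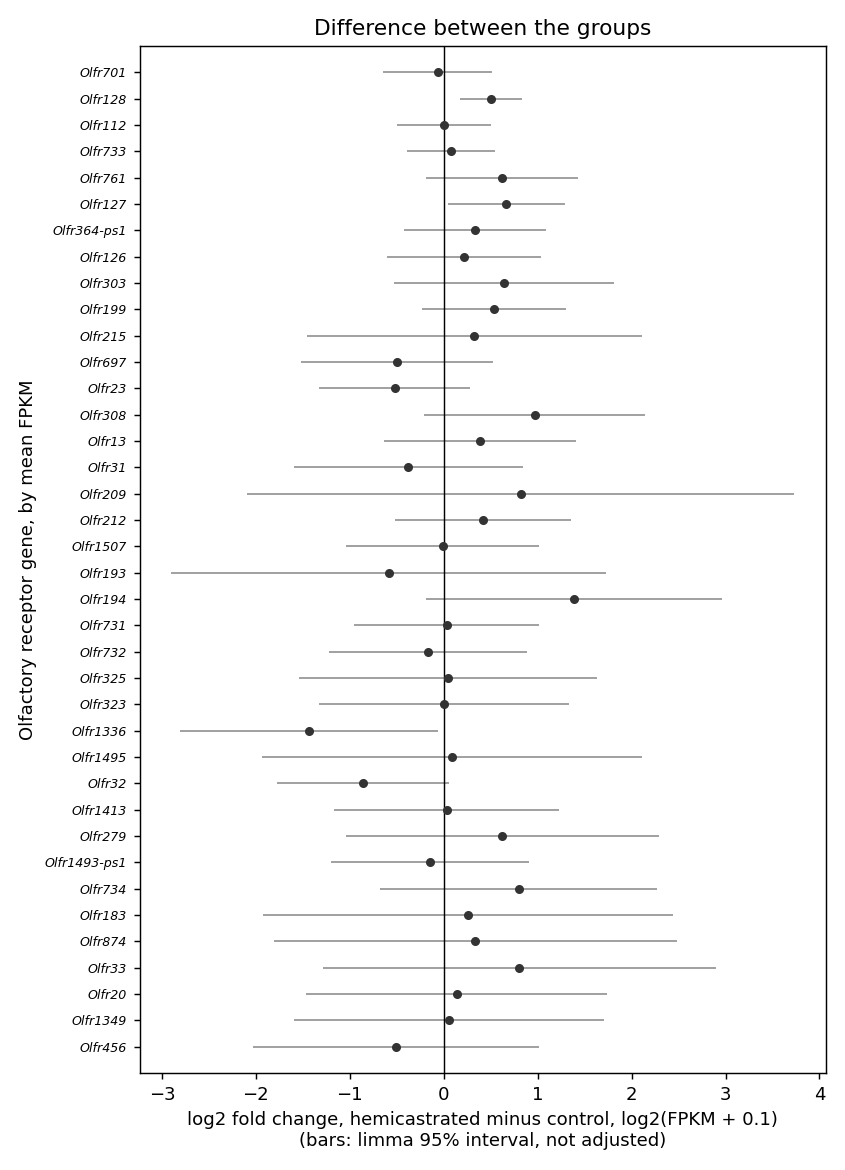
Log2 fold change of each member on the log2(FPKM + 0.1) scale, hemicastrated minus control, with the limma 95% interval before any adjustment, in order of mean FPKM. The intervals of Olfr128, Olfr127 and Olfr1336 leave out 0, none of the 38 passed the adjusted threshold, and intervals widen towards the genes of low level.

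The smallest adjusted p among the members was that of Olfr128, which averaged 8.47 ± 0.11 FPKM in hemicastrated mice and 5.97 ± 0.56 FPKM in control mice (SD, n = 2 each). Its log2 fold change came to 0.50 (SE 0.13, 95% interval 0.17 to 0.83, limma adjusted p = 0.244). It was positive under every alternative that could change it, at 0.41 without control 1 and 0.60 without control 2. Its adjusted p ranged from 0.236 to 0.740 over the alternatives. Olfr127 averaged 2.04 ± 0.27 FPKM in hemicastrated mice and 1.27 ± 0.33 FPKM in control mice, a difference of 0.67 on the log2 scale (SE 0.25) with a limma adjusted p of 0.422, which ranged from 0.358 to 0.824 over the alternatives. The difference was 0.42 without control 1 and 0.91 without control 2. Olfr761 had a log2 fold change of 0.62 (SE 0.33, limma adjusted p = 0.587), which was 0.16 without control 1 and 1.09 without control 2. For Olfr112, the most distant of the 5 chromosome 17 members in sequence, it was 0.005 (95% interval -0.49 to 0.50), and for Olfr126 it was 0.22 (95% interval -0.60 to 1.04).

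Together the chromosome 17 members summed to 17.4 and 17.9 FPKM in the hemicastrated libraries and to 11.3 and 15.4 FPKM in the control libraries. Their share of the members' sum was 45.2% and 44.6% in the hemicastrated libraries and 36.0% and 44.6% in the control libraries. Control 1 was the lowest library for each of the 5 genes, and control 2 lay near the hemicastrated libraries for Olfr126 and above them for Olfr112.

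**Figure D4:**
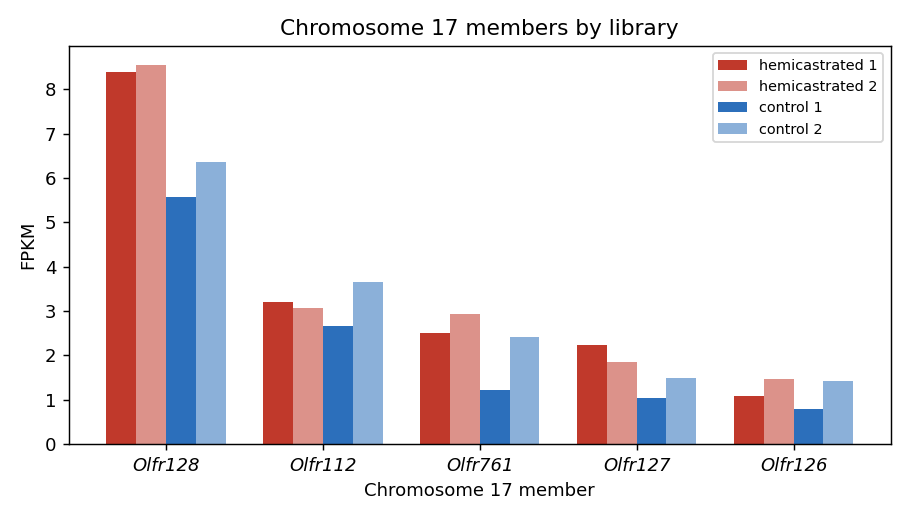
FPKM of the chromosome 17 members in each library (1 bar per library, no error bar). Control 1 is the lowest library for all 5 genes, and both hemicastrated libraries lie above both controls for Olfr128, Olfr761 and Olfr127.

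Olfr701, the gene of the highest mean, averaged 7.72 ± 2.56 FPKM in hemicastrated mice and 7.87 ± 0.68 FPKM in control mice (SD, n = 2 each), a log2 fold change of -0.06 (SE 0.24, 95% interval -0.64 to 0.52, limma adjusted p = 0.952). Its sign depended on a library, with 0.28 without hemicastrated 2 and 0.02 without control 1. For Olfr733 the log2 fold change was 0.08 (95% interval -0.39 to 0.54). These intervals do not show that the levels were equal, and they leave room for changes within their bounds.

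Other members without overlap were of low level. Olfr194 was at 0.384 and 0.409 FPKM in the hemicastrated libraries, was listed at 0 in control 1 and was at 0.259 FPKM in control 2 (log2 fold change 1.39, SE 0.64, limma adjusted p = 0.525; 0.47 without control 1 and 2.31 without control 2). Olfr212 was at 0.469 and 0.255 FPKM in the hemicastrated libraries and at 0.224 and 0.248 FPKM in the control libraries, so that hemicastrated 2 stood only just above control 2. Olfr308 was at 0.329 and 0.773 FPKM in the hemicastrated libraries and at 0.301 and 0.144 FPKM in the control libraries (log2 fold change 0.97, SE 0.48; 0.46 without hemicastrated 2, 1.48 without hemicastrated 1 and 0.61 without control 2). On the lower side, Olfr1336 had a listed 0 in hemicastrated 1 and 0.173 FPKM in hemicastrated 2, with 0.355 and 0.338 FPKM in the control libraries (log2 fold change -1.43, SE 0.56, limma adjusted p = 0.434; -0.71 without hemicastrated 1 and -2.16 without hemicastrated 2). Olfr32 was at 0.104 and 0.0888 FPKM in the hemicastrated libraries and at 0.232 and 0.283 FPKM in the control libraries, with a log2 fold change of -0.86 (SE 0.37, limma adjusted p = 0.489). Olfr23 was at 0.258 and 0.368 FPKM in the hemicastrated libraries and at 0.446 and 0.535 FPKM in the control libraries, a difference of -0.52 on the log2 scale (SE 0.33), which was -0.33 without hemicastrated 1. Each of these genes lay under 1 FPKM, where the libraries of a group often stood 2-fold apart.

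The signalling genes that work with olfactory receptors in the nose spanned a wide range of levels in the testis. Of 25 genes of a list of olfactory transduction and its regulators, 11 had a mean of at least 1 FPKM, 8 a mean between 0.1 and 1 FPKM and 6 a mean below 0.1 FPKM. The highest was Gnb1, a G protein beta subunit gene used in many tissues, at 65.1 and 70.6 FPKM in the hemicastrated libraries and at 72.7 and 68.3 FPKM in the control libraries. Pde1c, a phosphodiesterase that breaks down cyclic nucleotides, was at 46.3 and 49.5 FPKM in the hemicastrated libraries and at 43.6 and 45.9 FPKM in the control libraries. Both were named after their values were seen, and their groups overlapped for Gnb1 but not for Pde1c. Of the 19 genes tested, 0 were called in either direction, where 1.13% of all tested genes were. On the log2 scale the difference was above 0 in 6 of the 19 and below 0 in 13, and its median was -0.23, against 41.8% above 0 and a median of -0.05 over all tested genes. The G protein subunit gene Gnal was at 0.185 and 0.271 FPKM in the hemicastrated libraries and at 0.264 and 0.364 FPKM in the control libraries. Adcy3, the adenylyl cyclase of olfactory cilia, was at 1.10 and 0.364 FPKM in the hemicastrated libraries and at 1.06 and 0.755 FPKM in the control libraries. The channel subunit gene Cnga2 was listed at 0 in both hemicastrated libraries and control 1 and was at 0.0351 FPKM in control 2.

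Partners of the cyclic nucleotide channel were low as well. Cnga4, a modulatory subunit, was at 0.338 and 0.253 FPKM in the hemicastrated libraries and at 0.262 and 0.20 FPKM in the control libraries, and Cngb1, another subunit, at 0.262 and 1.0 FPKM in the hemicastrated libraries and at 0.936 and 0.879 FPKM in the control libraries. Ano2, the chloride channel, was at 0.244 and 1.61 FPKM in the hemicastrated libraries and at 0.936 and 0.827 FPKM in the control libraries. For Cngb1 and Ano2, hemicastrated 1 was the lowest library. Rtp1, which helps receptors reach the cell surface, was at 0.133 and 0.116 FPKM in the hemicastrated libraries and at 0.0162 and 0.0582 FPKM in the control libraries, under the mean of 0.1 FPKM that the test required.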

How the data were processed

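Poly(A) RNA of the right testis of 2 hemicastrated and 2 control mice had been sequenced as paired-end Illumina libraries, per the labels' protocols, although the molecule field says genomic DNA. No step that marks the strand is described. Tools in the submitters' processing notes are TopHat2 2.0.11 and Cufflinks 2.2.1 with GRCm38 as build, without roles, and do not state a gene annotation. The authors deposited FPKM, with 1 column for each library, per the file headers. Depth is unknown, so no counting interval is given.

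Symbols, positions, exons and coding sequences came from GENCODE M21 (GRCm38), which may differ from the authors' annotation and named 21806 of 22073 identifiers. The 15788 genes averaging 0.1 FPKM or more were compared on log2(FPKM + 0.1) in R 4.3.3 by limma 3.58.1, using a variance trend and no covariate, two-sided, with Benjamini-Hochberg adjustment and a threshold of 0.05. This minimum and pseudocount were set to the level of the members, most of which a minimum of 1 FPKM would leave out. An exact permutation test of 2 libraries against 2 cannot go under p = 0.333. Coding sequences were aligned with blastn 2.17.0. The fit was first tested on simulated data. Those were normal values with variances drawn from the fit itself, so that run does not check the fit on FPKM near 0. Alternatives were other pseudocounts, minimum levels, scalings and variance settings, the replicate number as a block, and leaving out each library.

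The members and lists were chosen with earlier results of these data known. Named genes are the 12 members of highest mean, any called member, up to 4 members per direction with the largest change among those without overlap, the 3 genes on each side of the 0.1 FPKM level, 8 receptors known from the literature, the first genes of the transduction list and the highest gene of other receptor families. Other members were named after their values were seen. Whether replicates are separate mice is taken from the extraction protocol, which speaks of 4 individuals.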

Additional observations from a re-analysis of the deposited data

How the results depend on the processing

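No olfactory receptor gene was called, higher or lower, under any of the 13 alternatives. Of 248 values of 20 named genes under these alternatives, 232 kept their direction and 16 changed sign, and the cause was not tested. The block, the variance settings and the minimum levels leave each fold change as it was, so no sign could change there. The share that kept its direction is thus in part fixed in advance. Olfr20 had a log2 fold change of -0.011 with a pseudocount of 1 and -0.0093 with 0.5, and Olfr112 of -0.0057 after rescaling each library to the same sum. Leaving out 1 library moved the log2 fold change of Olfr112 between -0.21 and 0.22, Olfr456 between -1.14 and 0.12, Olfr701 between -0.40 and 0.28, Olfr733 between -0.050 and 0.20, Olfr215 between -0.61 and 1.26, Olfr1349 between -0.85 and 0.96, Olfr364-ps1 between -0.012 and 0.68, Olfr126 between -0.17 and 0.61, and Olfr20 between -0.72 and 1.0. Over all genes, 2 were called higher and 97 lower with no minimum level, where more genes were tested, and 6 higher without the variance trend. Leaving out 1 library gave 0 to 16 higher and 0 to 128 lower genes. The summed FPKM of the members was 1.19 times as high in hemicastrated as in control libraries. It was 1.26 times as high without Olfr701, and 1.14 to 1.25 times with 1 library left out. Within that sum, the chromosome 17 members came to a mean of 17.6 FPKM in hemicastrated and 13.3 FPKM in control libraries. Olfr128 alone came to 8.47 FPKM in hemicastrated and 5.97 FPKM in control libraries. The number of members was 8 where the required mean was 1 FPKM, and 20 where every library had to reach 0.1 FPKM.

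With the replicate number as a block, 0 members, 13 higher and 182 lower genes were called, and Olfr128 had an adjusted p of 0.283 (limma). The numbers are not stated to pair the mice, and the deviations of libraries with the same number had a correlation of 0.035 across 11343 genes, so the block was not used. With 1 library left out of a group, the lone library is assumed to vary like the other group.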

Other observations

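Other chemosensory receptor families were counted in the same way. Of 169 Vmn1r and 121 Vmn2r genes, which encode vomeronasal receptors, 4 (2.37%) and 5 (4.13%) reached a mean of 0.1 FPKM. The highest were Vmn1r181, at 1.20 and 5.01 FPKM in the hemicastrated libraries and at 2.10 and 3.47 FPKM in the control libraries, and Vmn2r7, at 3.21 and 3.53 FPKM in the hemicastrated libraries and at 2.92 and 3.29 FPKM in the control libraries. None of 15 trace amine receptor genes (Taar), 35 bitter receptor genes (Tas2r) and 7 formyl peptide receptor genes (Fpr) reached that level.

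Of 3 Tas1r genes, which encode subunits of the sweet and umami receptors, 2 reached it, with Tas1r1 at 8.02 and 7.44 FPKM in the hemicastrated libraries and at 6.33 and 6.94 FPKM in the control libraries (log2 fold change 0.22, SE 0.13, limma adjusted p = 0.632). Tas1r1 was thus at a level like that of Olfr701 and Olfr128. Of 19 Ms4a genes, some of which act as chemoreceptors in the nose while others work in immune cells, 12 reached it. Ms4a5 was the highest, at 178 and 198 FPKM in the hemicastrated libraries and at 141 and 144 FPKM in the control libraries (log2 fold change 0.40, SE 0.09, limma adjusted p = 0.165). Of the tested genes (4 Vmn1r, 5 Vmn2r, 2 Tas1r and 12 Ms4a) 0 were called by limma, where 1.13% of all tested genes were. An unadjusted p under 0.05 was found in 4 of the 12 Ms4a genes and 0 of the others, where 10.9% of all tested genes had one.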
